A study of Mus musculus with 16 samples.

Results

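The cytochrome P450 genes of the mouse were followed through immature and mature medullary thymic epithelial cells (mTEC). Members were the Ensembl rows of the count table whose symbol is Cyp, a family number, a subfamily letter and a gene number, without pseudogene symbols. This rule found 94 genes among 53464 Ensembl rows. All 94 were annotated as protein-coding, in 16 families and 39 subfamilies. A further 29 symbols that begin with Cyp were not members, 22 of them pseudogene symbols.

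P450 enzymes are haem proteins that insert an oxygen atom into a substrate, using electrons passed on by P450 oxidoreductase or, in mitochondria, by ferredoxin. Some families make hormones and bile acids from cholesterol or control the levels of vitamin D and retinoic acid, and others clear drugs and other foreign compounds, mostly in liver, intestine and airway. Mature mTEC are known for expressing many genes of such peripheral tissues, which exposes developing T cells to self antigens.

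RNA of sorted mTEC was sequenced from 8 mice, with a mature and an immature library from each. The mice were 2 controls and 2 tKO of each of 2 lines. Every mouse carried lox/lox alleles of Rbfox1 or of Rbfox2, genes of RNA-binding splicing factors. The tKO mice carried 1 Foxn1 allele with cre, which is active in thymic epithelium, and controls had 2 wildtype Foxn1 alleles. Cre and the loss of the target therefore went together. Each group held a male and a female of 4 to 6 weeks, labelled C57BL/6, whereas the methods of the study name sex-matched littermates as controls and, for these strains, a background of 129S2/Sv mixed with C57BL/6J. About 10000 cells a library were sorted as CD45-, EpCAM+, Ly51- and UEA+, with MHCII high for mature and low for immature mTEC. These are bulk libraries, so fewer cells that express a gene and less of its RNA per cell cannot be told apart.

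The library totals were 3737884 to 4636367 counts in mature and 1506134 to 2430287 in immature libraries. Levels are given as CPM (library-scaled counts, TMM). The labels fitted the markers of mature mTEC. In control mice Aire (log2 fold change 3.27), Cd80 (3.63), Cd86 (5.10) and Fezf2 (1.27) were higher in mature cells. H2-Aa, an MHC class II gene and so tied to the sort by MHCII, differed by 0.86. Of the targeted genes, Rbfox2 was at 9.56 to 16.2 CPM in mature Rbfox2 tKO and 57.1 to 58.1 CPM in their controls (log2 fold change -2.14, SE 0.17, edgeR quasi-likelihood test, Benjamini-Hochberg adjusted p = 1.31e-06), and it was lower in immature tKO too (-1.69). Rbfox1 was at 29.8 and 34.1 CPM in mature Rbfox1 tKO against 48.6 and 52.6 CPM (-0.66, adjusted p = 0.242 by the same test), and its immature levels hardly differed (-0.09). A gene total also counts exons outside the excised part.

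The start regions of 6 members are shown because these members carry most of what follows: Cyp1a1 and Cyp1a2 rose in mature cells while the third gene of family 1, Cyp1b1, fell, Cyp2a5 and Cyp26a1 were the highest members per kilobase in mature cells, and Cyp2f2 was the highest in immature cells. Each line gives the 150 bases before the RefSeq start (GRCm38.p6), read 5′ to 3′ on the gene's strand. Capitals mark the TATA motif TATAAA, or GCGTG, the core of the site of the aryl hydrocarbon receptor, which reads CACGC where it lies on the other strand. The windows were chr9:57697463-57697612 (+) for Cyp1a1, chr9:57683656-57683805 (-) for Cyp1a2, chr17:79715062-79715211 (-) for Cyp1b1, chr7:26835189-26835338 (+) for Cyp2a5, chr19:37697658-37697807 (+) for Cyp26a1 and chr7:27119805-27119954 (+) for Cyp2f2.
Cyp1a1: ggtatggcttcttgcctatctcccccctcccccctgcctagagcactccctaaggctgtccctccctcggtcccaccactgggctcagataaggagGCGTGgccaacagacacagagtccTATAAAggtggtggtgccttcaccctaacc
Cyp1a2: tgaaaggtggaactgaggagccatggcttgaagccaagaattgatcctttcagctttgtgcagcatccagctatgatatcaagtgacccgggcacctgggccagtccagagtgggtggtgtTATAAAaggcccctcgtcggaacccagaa
Cyp1b1: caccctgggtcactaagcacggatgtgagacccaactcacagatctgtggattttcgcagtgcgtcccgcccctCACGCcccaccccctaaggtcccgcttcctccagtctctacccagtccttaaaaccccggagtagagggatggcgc
Cyp2a5: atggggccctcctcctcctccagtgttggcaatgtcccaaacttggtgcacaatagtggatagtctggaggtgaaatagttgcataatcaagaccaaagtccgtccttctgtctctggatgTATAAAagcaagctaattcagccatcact
Cyp26a1: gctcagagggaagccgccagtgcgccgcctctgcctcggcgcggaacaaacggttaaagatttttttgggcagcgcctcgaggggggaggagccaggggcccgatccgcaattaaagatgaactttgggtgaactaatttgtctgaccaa
Cyp2f2: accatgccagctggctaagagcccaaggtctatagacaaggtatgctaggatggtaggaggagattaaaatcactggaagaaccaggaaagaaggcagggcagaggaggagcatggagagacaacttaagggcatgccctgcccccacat

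The TATA motif began 30 bases before the start in Cyp1a1 and 29 bases before it in Cyp1a2 and Cyp2a5. The receptor core lay 54 bases before the start of Cyp1a1 and 76 bases before that of Cyp1b1. The windows of Cyp26a1 and Cyp2f2 held neither motif. RefSeq promoters were matched to 73 of the 94 members, with 83 windows. TATAAA, searched on both strands, stood in 31.3% of the member windows and in 7.57% of all 32851 windows of this length. GCGTG stood in 14.5% and 20.5%. CAAAGTCCA, a site form of the liver factor HNF4, stood in 10.8% and 0.271%, with 9 member windows that belonged to subfamilies 2c and 3a and to Cyp8b1. These matches describe letters and show no binding.

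More P450 genes were detected in mature than in immature mTEC, in every mouse. As counted, 80 to 86 members (median 82) had at least 1 count in a mature library and 26 to 45 (median 37.5) in an immature one. Depth differed between the populations, so all libraries were thinned to 1506134 counts. Mature libraries then held 68 to 77 detected members (72.1 ± 3.09, SD, n = 8) and immature libraries 26 to 41 (34.1 ± 5.72, SD, n = 8), with no overlap. Of all protein-coding genes, 78.4 to 80.0% were detected in thinned mature libraries and 66.1 to 69.3% in immature ones. The members lay at 72.3 to 81.9% and 27.7 to 43.6%.

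Lines and genotypes differed less than the populations in the number of members detected. In thinned mature libraries the means were 74.5 ± 3.54 (SD, n = 2) in Rbfox1 controls, 72.5 ± 3.54 in Rbfox1 tKO, 71 ± 4.24 in Rbfox2 controls and 70.5 ± 2.12 in Rbfox2 tKO, and these groups overlapped. In immature libraries they were 37 ± 5.66, 40 ± 1.41, 32 ± 2.83 and 27.5 ± 2.12 in the same order. The Rbfox2 tKO libraries, with 26 and 29 members, lay below the 30 and 34 of their controls and the 39 and 41 of the Rbfox1 tKO. Detection of all protein-coding genes was 67.1 and 66.9% in these libraries. It was 66.1 and 67.7% in their controls, which overlapped, and 68.8 and 69.3% in the Rbfox1 tKO. These differences were not tested.

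**Figure D1:**
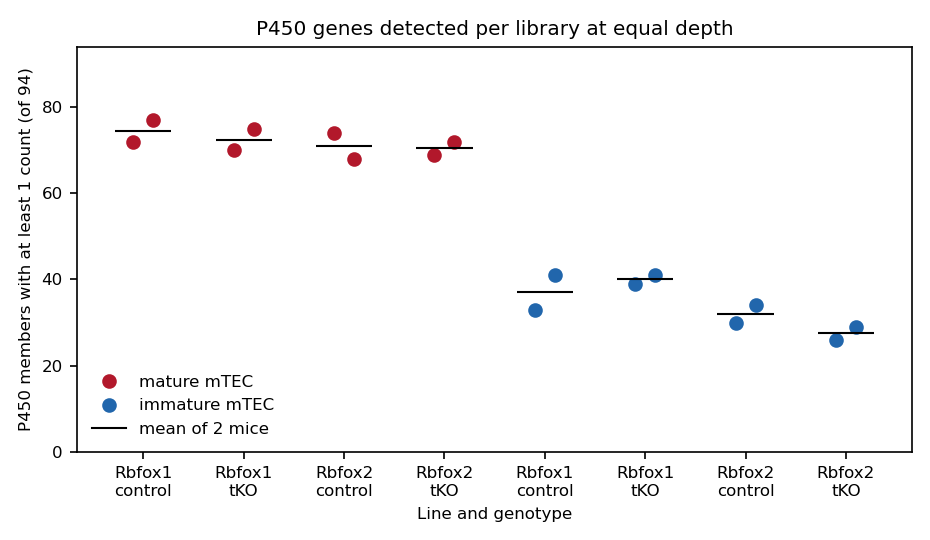
Number of P450 members (of 94) with at least 1 count in each library after thinning to 1506134 counts, by line, genotype and population. Points are libraries and lines are means of 2 mice. Mature libraries sit at 68 to 77 members and immature libraries at 26 to 41.

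Over the 8 mature libraries as counted, without thinning, 91 members had a count in at least 1 library and 71 had one in all 8. In the 8 immature libraries the numbers were 58 and 22. A further count, of members with at least 10 counts in every library of a population, gave 35 in mature and 14 in immature cells. Counts in mature and 0 in all 8 immature libraries were found for 33 members, of which 18 had a count in all 8 mature libraries. After thinning to equal depth, 89 members had a count in at least 1 mature library and 55 in all 8, and 56 and 21 in the immature libraries. These were 94.7% and 58.5%, and 59.6% and 22.3%, of the members. The shares of all protein-coding genes were 88.1% and 69.6%, and 78.5% and 58.6%. At least 10 counts in every thinned library were found for 24 members in mature and 14 in immature cells. That was 25.5% and 14.9%, beside 50% and 45.2% of protein-coding genes. Members with counts in mature and 0 in all 8 immature libraries then numbered 33, of which 6 had a count in all 8 mature libraries. These were 35.1% and 6.38% of the members, beside 10.3% and 1.39% of all 21942 protein-coding genes. The reverse pattern was seen for 0 members as counted and after thinning. The rows of Cyp2c66, Cyp2d9 and Cyp2d12 were at 0 in all 16 libraries.

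Subfamilies differed widely in level. The 4 genes of Cyp2a summed to 229 to 433 CPM in mature and 57.8 to 120 CPM in immature libraries, and the 9 genes of Cyp4f to 149 to 171 and 54.6 to 84.2 CPM. The 15 genes of Cyp2c, known for their high level in liver, together reached 12.7 to 17.7 CPM in mature and 0 to 1.54 CPM in immature libraries. The 5 Cyp4a genes, fatty acid hydroxylases of liver and kidney, summed to 1.28 to 5.4 CPM in mature libraries and to 0 in all 8 immature ones. Cyp1b, whose only gene is Cyp1b1, was higher in immature libraries, at 107 to 226 CPM against 14.1 to 24.9 CPM.

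**Figure D2:**
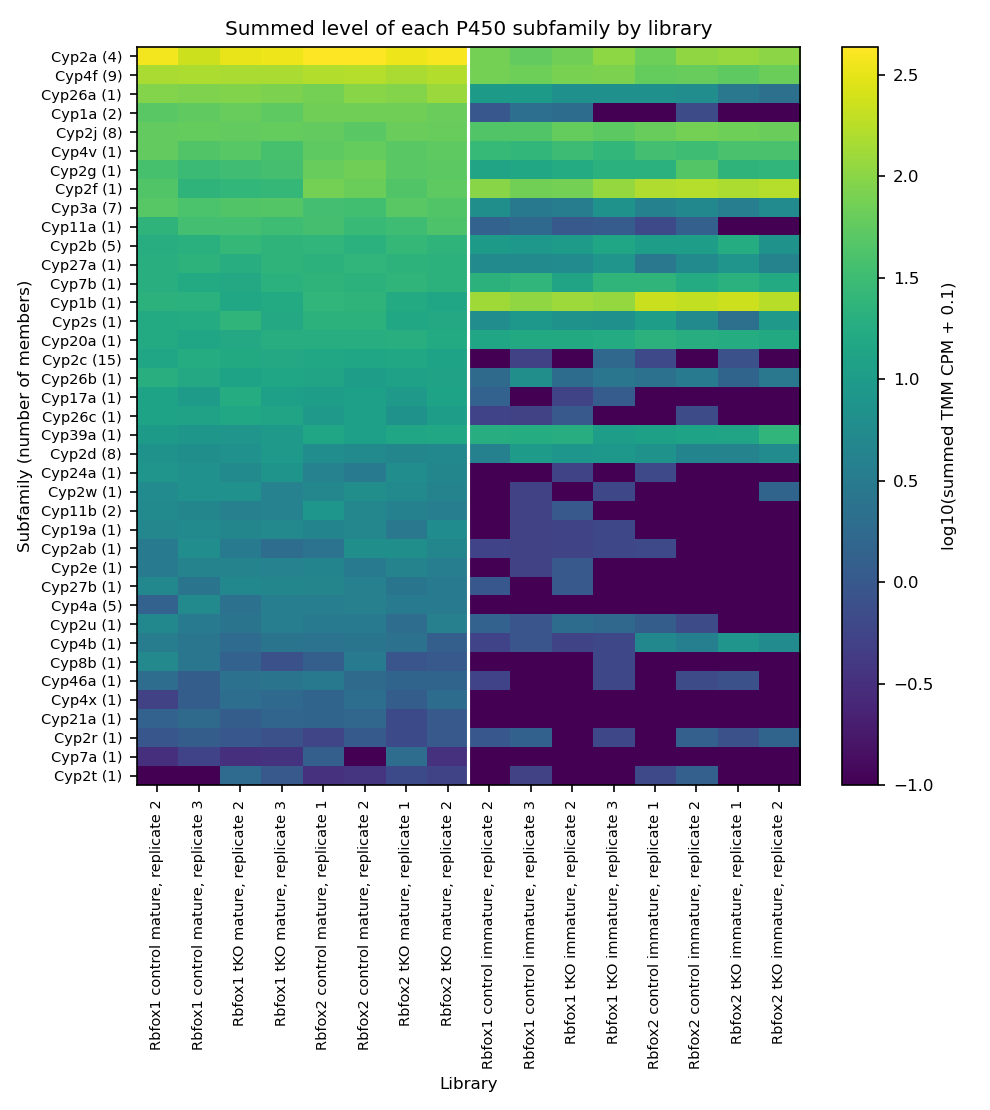
Summed level of each subfamily in each of the 16 libraries, as log10 of the summed TMM CPM plus 0.1, ordered by the level in mature libraries, with the number of members in brackets. Cyp2a, at 229 to 433 CPM in mature libraries, tops the mature side, and Cyp1b, at 107 to 226 CPM, is brighter on the immature side.

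The summed level of the 94 members was 994 to 1326 CPM (median 1179) in mature and 512 to 797 CPM (median 686) in immature libraries, again without overlap. By group, the mature sums were 1081.9 ± 124 (SD, n = 2) in Rbfox1 controls, 1118.2 ± 3.56 in Rbfox1 tKO, 1318.7 ± 9.72 in Rbfox2 controls and 1238.3 ± 70.2 in Rbfox2 tKO. In immature libraries the sum was higher in the Rbfox2 line, at 767 ± 42.2 CPM in controls and 761.8 ± 30.9 in tKO, than in the Rbfox1 line, at 541 ± 41.9 and 600 ± 51.2. Few genes held most of it. Cyp2a5 alone gave 22.8 to 32.7% of the member counts in mature libraries and 9.16 to 16.6% in immature ones.

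Per kilobase of exon, the 10 highest members in mature control libraries were Cyp2a5, Cyp26a1, Cyp1a2, Cyp4f16, Cyp2f2, Cyp2g1, Cyp4v3, Cyp27a1, Cyp7b1 and Cyp3a13. Cyp2a5 stood at 175 ± 46 CPM per kilobase (SD, n = 4) and Cyp26a1 at 44.3 ± 4.3. The next members, Cyp1a2 at 26.3 ± 5.2, Cyp4f16 at 26.2 ± 1.45, Cyp2f2 at 25.6 ± 11 and Cyp2g1 at 23.2 ± 8.84, did not differ beyond their spread. In immature control libraries the order was Cyp2f2, Cyp2a5, Cyp1b1, Cyp2g1, Cyp2j6, Cyp7b1, Cyp4f16, Cyp4v3, Cyp20a1 and Cyp4f17. Cyp2f2 stood there at 62.5 ± 24 CPM per kilobase, Cyp2a5 at 37.1 ± 11 and Cyp1b1 at 28.4.

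Between mature and immature cells of the 4 control mice, 46 members had enough counts to be tested. The other 48 were not tested. A call needed a log2 fold change beyond 1 in size and an adjusted p under 0.05 in edgeR's quasi-likelihood fit of all rows. Of the 46, 33 were higher in mature cells and 4 lower, and 9 were not called. Of all 16750 rows tested, 26.8% were higher and 11.1% lower. As many as 26 of the 46 passed the count filter only through the mature libraries, so that their number is no measure of the family.

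The 20 members that passed the filter within the immature libraries alone give another view, since that filter favours genes present in immature cells. Of these, 7 were higher in mature cells, 4 were lower and 9 were not called. Among all rows of that kind, 11.1% were higher and 13.6% lower. In the 4 tKO mice, 45 members were tested, with 32 higher and 4 lower, beside 26.3% and 11.9% of all rows. The 20 members again split into 7, 4 and 9, beside 11.4% and 14.3% of the rows of that kind. Every called member moved the same way in each of the 4 mice of its genotype. Markers of other cells also differed between the populations. In control mice 4 of 6 tested thymocyte and blood cell markers, of 9 listed, were higher in mature cells. These were Cd4 (log2 fold change 2.82), Cd8a (2.37), Ptprc (2.14) and Lyz2 (4.01). Hba-a1 (-0.58) and Cd74 (0.60), a gene of MHC class II presentation that is not particular to blood cells, were not called. The 2 of 2 tested adipocyte markers, of 3 listed, were higher too (sums of 323 to 390 CPM in mature and 46.1 to 124 CPM in immature libraries). The 3 endothelial markers were lower in mature cells (21.7 to 30.3 and 19.4 to 184 CPM), and of 6 fibroblast markers 4 were lower and 1 higher. Their part in the P450 differences was not tested.

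**Figure D3:**
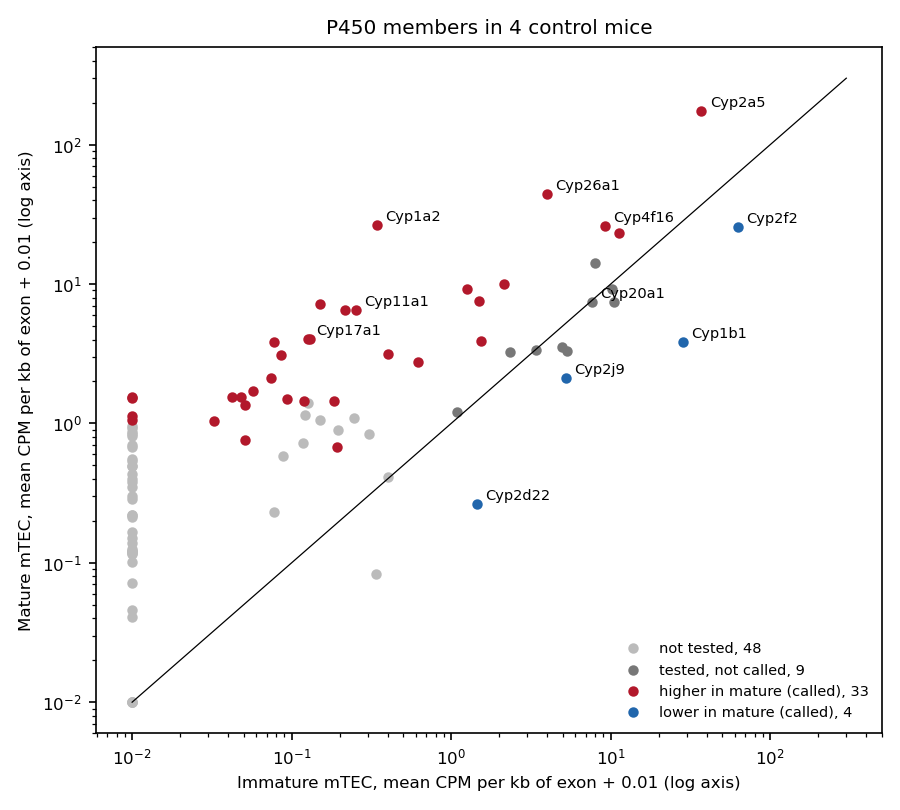
Mean level of each member in mature (vertical) against immature (horizontal) libraries of the 4 control mice, in CPM per kilobase of exon plus 0.01, on log axes. Red points are the 33 members called higher in mature cells, blue points the 4 called lower, dark grey the 9 not called and light grey the 48 not tested, and the line marks equal levels.

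The genes of family 1, textbook targets of the aryl hydrocarbon receptor, split between the populations. Cyp1a1 and Cyp1a2 passed the count filter only through the mature libraries. Cyp1a2, which oxidises aromatic amines in liver, was at 42.1, 46.2, 62.5 and 61.3 CPM in the mature control libraries and at 0.43, 1.64, 0 and 0.60 CPM in the immature ones. The tKO libraries had 46.2 to 62.3 and 0 to 1.40 CPM, so the populations lay far apart in both genotypes. The pooled control counts were 926 and 6, a ratio of 72.3 after scaling (95% interval of counting error 33.1 to 197, exact Poisson). The fitted log2 fold change was 6.46 (SE 0.28, adjusted p = 3.81e-13) in control and 8.25 (SE 0.40, adjusted p = 5.73e-14) in tKO mice. Every adjusted p, here and below, is after Benjamini-Hochberg in edgeR's quasi-likelihood test. The counting interval is wider than the SE in control mice implies. The SEs of members with few immature counts, here and below, are therefore no measure of the precision of the fold change.

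Cyp1a1, the neighbour of Cyp1a2 on chromosome 9, was at 7.34 to 9.29 CPM in the 8 mature libraries and at 0 to 0.47 CPM in the immature ones. Its pooled control counts were 151 and 2, a ratio of 35.4 (95% counting interval 9.62 to 295). Cyp1b1, which hydroxylates oestradiol and polycyclic hydrocarbons outside the liver, went the other way. It was at 21.3, 20.7, 24.9 and 22.7 CPM in mature and at 132, 107, 221 and 203 CPM in immature control libraries (log2 fold change -2.83, SE 0.10, adjusted p = 1.16e-14). In tKO mice Cyp1b1 was at 14.1 to 16.6 and 117 to 226 CPM (-3.33, SE 0.11, adjusted p = 5.07e-17). Fibroblast markers, too, had a higher sum in immature libraries of the Rbfox2 line. Within the Rbfox1 line their sum overlapped between the populations, at 363 to 502 CPM in mature and 311 to 603 CPM in immature libraries. Cyp1b1 was at 14.7 to 21.3 and 107 to 132 CPM in that line. The sum hides unlike single markers. In the control mice of both lines, 4 of the 6 (Col3a1, Dcn, Lum and Pdgfra) were called lower in mature cells. Pdgfrb was called higher and Col1a1 was not called. The part of fibroblasts in the Cyp1b1 difference was not tested. The receptor gene Ahr itself was at 3.53 to 7.86 CPM in mature and 6.46 to 13.4 CPM in immature libraries and was not called (-0.82, adjusted p = 0.0134).

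All 6 genes of steroid hormone synthesis were detected in every mature library, and their sum was 47.4 to 65.2 CPM in mature and 0 to 2.79 CPM in immature libraries. The 4 that were tested, Cyp11a1, Cyp17a1, Cyp11b1 and Cyp19a1, were all higher in mature cells in both genotypes. All 4 passed the count filter only through the mature libraries, and 26.8% of all rows tested in control mice were higher. Cyp11a1, which cleaves the side chain of cholesterol in the first step of the pathway, was at 23.2, 35.8, 36.4 and 29.2 CPM in mature and at 1.29, 1.64, 0.54 and 1.20 CPM in immature control libraries. Its counts of 548 and 10 gave a ratio of 25.7 (95% counting interval 13.9 to 53.8) and a log2 fold change of 4.74 (SE 0.31, adjusted p = 1.33e-10).

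Cyp17a1, which makes androgen precursors, was at 9.29 to 17.7 CPM in mature and 0 to 1.29 CPM in immature libraries, with control counts of 197 and 3 and a ratio of 30.8 (95% counting interval 10.4 to 150). Cyp11b1, the last enzyme on the way to corticosterone, had control counts of 85 and 1, and Cyp19a1, aromatase, 83 and 1. Cyp21a1, which hydroxylates progesterone, was too low to test, at 0.55 to 1.73 CPM in mature libraries and 0 in all 8 immature ones. This was at least 4.06-fold higher in mature control cells, with 3 counts over the group of immature libraries as the floor. Cyp11b2, aldosterone synthase, was at 0.23 to 1.41 CPM in mature and 0 in immature libraries, and it shares over 10% of its stretches of 100 bases with another gene.

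Of 3 steroid partner genes, 2 were tested and both were higher in mature cells in both genotypes. Neither passed the count filter within the immature libraries. Star, which carries cholesterol into mitochondria, was at 21.7 to 33.0 CPM in mature and 0.69 to 2.15 CPM in immature libraries (log2 fold change 4.21, SE 0.27, adjusted p = 7.53e-11 in control mice). Hsd3b1 was at 4.97 to 11.7 CPM in mature libraries and at 0 in all 8 immature ones. Nr5a1, the factor that controls the adrenal pathway, was at 2.19 to 5.55 and 0 to 1.40 CPM (3.53 in control mice, adjusted p = 2.56e-05), and was not tested in tKO mice. Fdx1, the ferredoxin that hands electrons to mitochondrial P450s, was not called (0.21, adjusted p = 0.185). Mc2r, the receptor of adrenal cortex for corticotropin, was at 0 in 15 libraries and at 0.22 CPM in 1.

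The 3 retinoic acid hydroxylases, which clear retinoic acid, were higher in mature cells in both genotypes. Cyp26b1 and Cyp26c1 passed the count filter only through the mature libraries, and 26.8% of all rows were higher in control mice. Cyp26a1 was at 91.5, 87.0, 76.4 and 96.6 CPM in mature and at 9.47, 9.43, 6.53 and 6.02 CPM in immature control libraries (log2 fold change 3.50, SE 0.15, adjusted p = 1.85e-13). The tKO libraries had 84.3 to 122 and 2.08 to 6.68 CPM (4.58, SE 0.19, adjusted p = 1.24e-15). Cyp26b1 was at 10.6 to 19.6 and 1.40 to 6.15 CPM (2.16 in control mice). Cyp26c1, which lies beside Cyp26a1 at chromosome 19 (37685581 to 37701536 for the pair, GRCm38), was at 7.10 to 14.7 and 0 to 0.93 CPM. Of the retinoic acid receptors, Rarg was lower in mature cells of control mice (-1.52, SE 0.11, adjusted p = 7.24e-10). Rara (0.44, adjusted p = 0.00265) and Rarb (-0.61, adjusted p = 0.104) were not called.

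Of the 3 vitamin D enzymes, Cyp27b1, which makes the active hormone, and Cyp24a1, which breaks it down, were both higher in mature cells. Both passed the count filter only through the mature libraries, and 26.8% of all rows were higher in control mice. The control counts were 68 and 2 for Cyp27b1 and 98 and 1 for Cyp24a1. The pooled ratios were 15.9 (95% counting interval 4.24 to 134) and 45.9 (8.05 to 1831). Cyp2r1, which makes the circulating form in liver, had 15 and 7 counts, too few for the test, and a ratio of 1.0 (0.385 to 2.91). The receptor gene Vdr was at 127 to 164 CPM in mature and 48.4 to 73.0 CPM in immature libraries (log2 fold change 1.26, SE 0.09, adjusted p = 4.75e-10).

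Bile acid and oxysterol genes did not move as a block. Of the 2 called higher in control mice, Cyp8b1 passed the count filter only through the mature libraries. Of the 4 tested, Cyp27a1, a mitochondrial sterol hydroxylase, was at 18.6 to 24.5 CPM in mature and 2.72 to 7.70 CPM in immature libraries (2.23, SE 0.22, adjusted p = 4.50e-08). Cyp8b1, which is needed for cholic acid, was at 0.71 to 5.11 CPM in mature libraries and had a count in 1 immature library, of a tKO mouse. It was at least 8.43-fold higher in mature control cells, with the same floor. The oxysterol hydroxylases Cyp7b1 (15.5 to 23.5 and 13 to 24.6 CPM, log2 fold change -0.14, adjusted p = 0.414) and Cyp39a1 (-0.48, adjusted p = 0.0306) were not called. Cyp7a1, the rate-limiting enzyme of bile acid synthesis in liver, reached 1.91 CPM at most in mature libraries and was at 0 in all immature ones.

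Among drug-metabolising genes of families 2 and 3, Cyp2a5 led. This coumarin hydroxylase of liver and olfactory mucosa was at 367, 227, 429 and 432 CPM in mature and at 73.6, 57.8, 67.5 and 108 CPM in immature control libraries (log2 fold change 2.24, SE 0.14, adjusted p = 7.78e-11). In tKO mice it was at 328 to 396 and 70.8 to 120 CPM (1.87, SE 0.10, adjusted p = 1.47e-13). It shares 12.1% of its stretches of 100 bases with its copies, which the counting could split. Its neighbour Cyp2g1, of olfactory epithelium, was at 30.2 to 70.2 CPM in mature and 13.3 to 46.3 CPM in immature libraries (1.11, SE 0.18, adjusted p = 1.75e-05). The call of Cyp2g1 in control mice was lost without the immature library of Rbfox2 control replicate 1 (0.87).

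Some genes of liver drug metabolism were low, whereas Cyp1a2 was at 42.1 to 62.5 CPM in mature libraries. None of the P450 genes given next passed the count filter within the immature libraries. Cyp2e1, which oxidises ethanol, was at 3.19 to 4.23 CPM in mature and 0 to 0.93 CPM in immature libraries. Cyp3a11, the main inducible P450 of mouse liver, was at 3.01 to 4.74 CPM in mature and 0 to 0.43 CPM in immature libraries. Cyp3a13, an intestinal member, was higher at 23.2 to 38.0 and 1.86 to 4.85 CPM (2.87, SE 0.23, adjusted p = 2.69e-09). Cyp2b10 had control counts of 79 and 1, Cyp2w1 103 and 1. Cyp2c29 was at 1.62 to 3.82 CPM in mature libraries and at 0 in all immature ones (at least 7.03-fold higher in control cells). Cyp2c65 and Cyp3a44, at 0 in immature control libraries, were at least 7.96-fold and 6.24-fold higher. The hepatocyte markers summed to 58.5 to 87.2 CPM in mature and 0 to 8.32 CPM in immature libraries, and 8 of 8 markers of enterohepato mimetic cells rose, with sums of 822 to 933 and 32.1 to 101 CPM. Their part in the P450 levels was not tested.

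**Figure D4:**
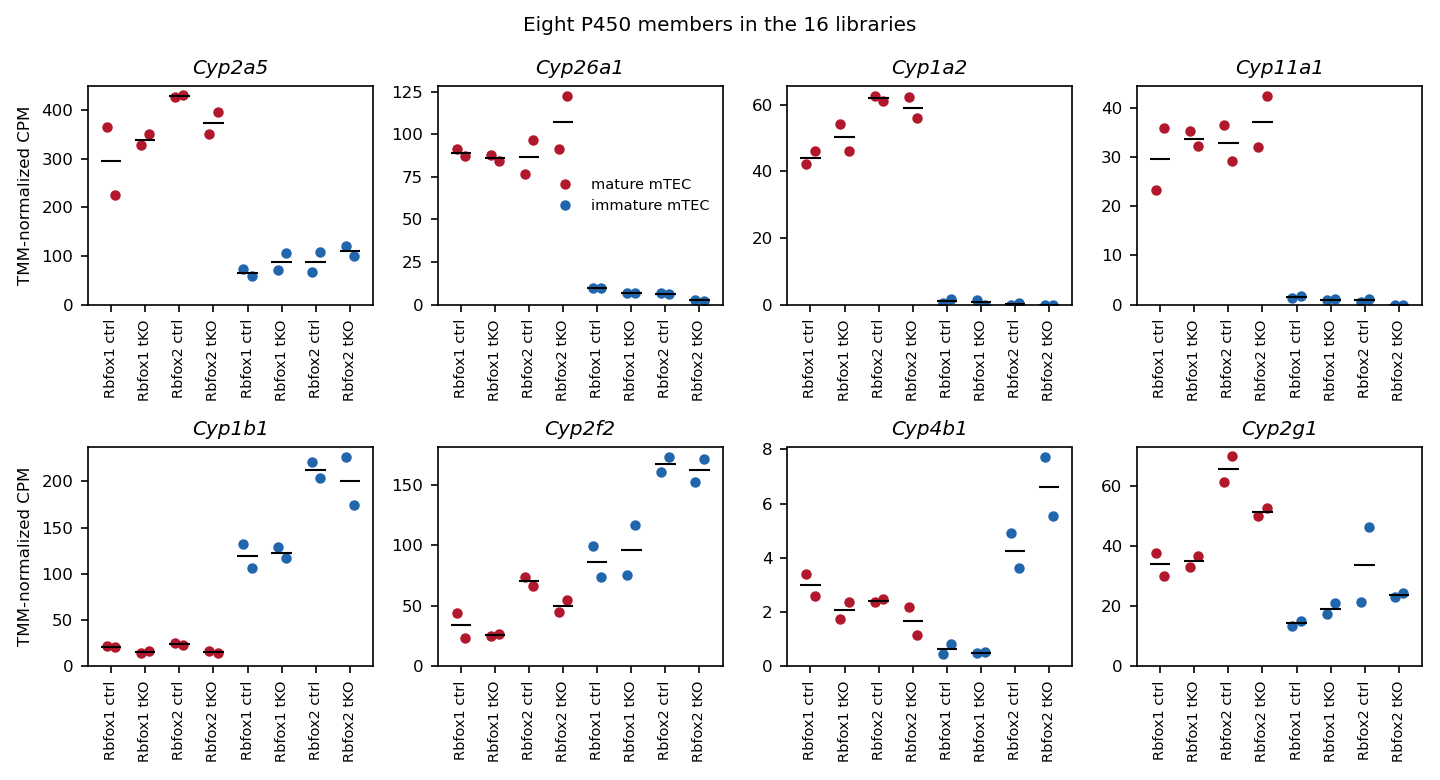
TMM CPM of 8 members in each library, by line (Rbfox1, Rbfox2), genotype (ctrl, control) and population. Points are libraries and lines the means of 2 mice. Cyp2a5, Cyp26a1, Cyp1a2 and Cyp11a1 are higher in all mature libraries, Cyp1b1 and Cyp2f2 in immature libraries, and Cyp4b1 differs between the lines in immature libraries.

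Beside Cyp1b1, 3 members were lower in mature cells. Cyp2f2, which activates naphthalene in airway club cells, was at 43.8, 23.3, 74.0 and 66.2 CPM in mature and at 99.0, 73.4, 161 and 173 CPM in immature control libraries (log2 fold change -1.30, SE 0.14, adjusted p = 9.20e-08). Across both lines the values touch, with 74.0 CPM in 1 mature library of the Rbfox2 line against 73.4 CPM in 1 immature library of the Rbfox1 line, but within each line they were apart. An exon of a gene on the other strand, Gm15883, covers 13.5% of its exons. Cyp2j9, an arachidonic acid epoxygenase, was at 5.53 to 9.88 CPM in mature and 12.9 to 25.3 CPM in immature libraries (-1.29, SE 0.22, adjusted p = 3.28e-05). Cyp2d22 was low in both populations, at 0 to 1.51 and 2.08 to 9.02 CPM (-2.58, SE 0.48, adjusted p = 9.95e-05). These 4 members were also lower in the tKO mice.

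Of the 26 fatty acid and eicosanoid members, 14 were tested in control mice, with 8 higher, 1 lower and 5 not called, beside 26.8% higher and 11.1% lower of all rows. Of the 8 higher members, 6 passed the count filter only through the mature libraries, and the other two, Cyp4f16 and Cyp4f39, passed it in immature libraries too. Cyp4f16 was the highest per kilobase, at 73.3 to 85.2 CPM in mature and 19.6 to 34.4 CPM in immature libraries (log2 fold change 1.53, SE 0.10, adjusted p = 1.81e-10). Cyp4f14, which inactivates leukotrienes, was at 10.2 to 29.1 and 0 to 1.54 CPM (5.49, SE 0.50, adjusted p = 1.43e-08). Cyp4f37 was at 0 in all immature libraries and at least 8.27-fold higher in mature control cells. Cyp4f13 (-0.01, adjusted p = 0.970) and Cyp4f17 (-0.69, adjusted p = 0.00881) of the same cluster were not called. Nor were Cyp2j6 (-0.46, adjusted p = 0.00251) and Cyp4v3 (0.84, adjusted p = 6.37e-06), whose fold changes stayed under the threshold. Cyp20a1, an enzyme without a known substrate, was at 14.2 to 19.7 and 14.2 to 21.8 CPM (-0.04, SE 0.16, adjusted p = 0.857).

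Most members lie in clusters of related genes. With a gap of at most 1 Mb between neighbours, 71 of the 94 fell into 10 clusters. Unless tKO mice are named, the tests given here are those between mature and immature cells of control mice. On chromosome 7 (25802475 to 27158668), 13 members of subfamilies 2a, 2b, 2f, 2g, 2s and 2t stand together, and 6 were tested, with 4 higher and, in Cyp2f2, 1 lower. Of those 4, 1 passed the count filter only through the mature libraries. In the Cyp4f cluster on chromosome 17 (32452723 to 32947402) 7 of 8 were tested and 5 were higher, 3 of which passed only through the mature libraries. The Cyp2c cluster on chromosome 19 (39007019 to 40187333) has 14 members, of which only Cyp2c65 was tested in control mice and only Cyp2c29 in tKO mice. On chromosome 9 (57676937 to 58027023), Cyp1a2, Cyp1a1 and Cyp11a1 were all higher, and all 3 passed only through the mature libraries. The share of all rows that were higher was 26.8%. Clusters thus held members with unlike levels, from 0 to 175 CPM per kilobase in mature control cells on chromosome 7.

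The start-region motifs can be set beside these calls. Of the 28 members called higher in control mice that had a RefSeq window, 8 held TATAAA, 5 held GCGTG and 3 held CAAAGTCCA. Of the 3 called lower, 1, Cyp1b1, held GCGTG, and of the 6 not called 2 held it. TATAAA and CAAAGTCCA stood in 0 of the 3 and 0 of the 6. Among all 73 members with a window, 25 held TATAAA, 11 GCGTG and 9 CAAAGTCCA. The shares of all windows were 7.57%, 20.5% and 0.271%. A link between motif and call was not tested.

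The genes that P450 enzymes depend on were looked at in the same way. Of all rows tested, 26.8% were higher and 11.1% lower in mature cells of control mice. In tKO mice the shares were 26.3% and 11.9%. Por, the oxidoreductase that feeds electrons to microsomal P450s, was at 59.3 to 86.3 CPM in mature and 62.1 to 95.3 CPM in immature libraries (log2 fold change -0.15, adjusted p = 0.124). Of 7 electron donor genes tested in control mice, only Fdxr, ferredoxin reductase, was called (1.03, SE 0.16, adjusted p = 1.34e-05). In tKO mice Fdxr stayed under the fold threshold (0.93) and 0 of the 7 were called. Of 9 haem genes 2 rose in both genotypes. Alas1, the rate-limiting enzyme of haem synthesis outside red cells, was at 277 to 341 and 64.8 to 77.5 CPM (2.1, SE 0.08, adjusted p = 9.21e-14), and Alas2 rose by 2.13 in control mice. Fech, which inserts the iron into haem, was called lower in tKO mice (-1.06) and not in control mice (-0.88). Of the 14 receptor and factor genes tested, 7 were higher in mature cells, among them Hnf4a (2.79), Hnf4g (2.64) and Nr5a2 (3.12), and Rarg was lower. Cyp51, a sterol demethylase whose symbol the rule leaves out, was at 94.2 to 149 and 37.8 to 75.5 CPM (1.10, SE 0.08, adjusted p = 5.70e-10).

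With both lines pooled, the maturation pattern showed no called difference between tKO and control mice. Pooling tests the loss of neither gene alone, and cre went with the tKO genotype. Between the maturation effects of tKO and control mice, tested as an interaction over all 16 libraries, 0 of 47 members were called, as were 0% of 17442 rows, while 4 members and 907 rows (5.2% of rows) had an unadjusted p under 0.05. DESeq2 called 0 members too, and with the mouse as a block 49 rows and 0 members were called. Members tested in both genotypes and called higher in both numbered 30, and 4 were lower in both. The smallest p-values were those of Cyp1b1 (log2 difference of the effect -0.52, SE 0.16, adjusted p = 0.798) and Cyp26a1 (1.06, SE 0.34, adjusted p = 0.851).

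Within mature cells 53 members were tested for each line, and 0 were called in Rbfox1 tKO against control, beside 0.0166% of all rows. The unadjusted p was under 0.05 in 3 members and in 3.35% of all rows. In Rbfox2 tKO 0 were called, beside 0.0277% of rows, with 8 members and 5.34% of rows under 0.05. With both lines together 0 were called, beside 0.0222% of rows, and 5 members and 4.63% of rows were under 0.05. DESeq2 called 0 members in each of these comparisons. The fold changes were -1.88 to 0.71 on the log2 scale in Rbfox1 tKO and -1.29 to 1.15 in Rbfox2 tKO.

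Cyp1b1 had the smallest p over both lines. In mature Rbfox1 mice it was at 21.3 and 20.7 CPM in controls and 14.7 and 16.6 CPM in tKO, and in Rbfox2 mice at 24.9 and 22.7 against 16.4 and 14.1 CPM. All 4 tKO libraries were below all 4 controls (log2 fold change -0.54, SE 0.13), but the adjusted p of 0.434 missed the threshold. Cyp8b1 was at 5.11, 2.59, 1.18 and 3.21 CPM in controls and 1.31, 0.71, 0.82 and 0.92 CPM in tKO (-1.59, SE 0.47, adjusted p = 0.811), and here 1 tKO library lay above 1 control. In the Rbfox2 line alone Cyp2g1 was at 61.4 and 70.2 against 50 and 52.7 CPM (-0.36, adjusted p = 0.83), and in the Rbfox1 line alone Cyp2b19, an epidermal member, had a log2 fold change of 0.54 (adjusted p = 1.0).

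Within immature cells 20 members were tested, and again 0 were called in Rbfox1 tKO (0.0306% of rows), 0 in Rbfox2 tKO (0.0536%) and 0 over both lines (0.0306%). Unadjusted p-values under 0.05 were found for 0, 1 and 3 members in the same order, beside 5.90%, 6.25% and 7.48% of all rows, and DESeq2 called 0 in each. Cyp26a1 was at 9.47 and 9.43 CPM in Rbfox1 controls, 6.52 and 6.68 in Rbfox1 tKO, 6.53 and 6.02 in Rbfox2 controls and 2.80 and 2.08 in Rbfox2 tKO. In each line both tKO libraries were below both controls, with a log2 fold change of -0.92 over both lines (SE 0.33, adjusted p = 0.538) and of -1.32 in the Rbfox2 line (SE 0.55, adjusted p = 0.752). The Rbfox2 tKO values rest on 3 to 4 counts a library. Cyp2a5 had a log2 fold change of 0.38 (SE 0.15, adjusted p = 0.591) over both lines. In the Rbfox1 line the smallest p-values were those of Cyp2a5 (0.42) and Cyp2j6 (0.35, adjusted p = 0.857), and in the Rbfox2 line Cyp39a1 followed Cyp26a1 (0.66, adjusted p = 0.834).

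**Figure D5:**
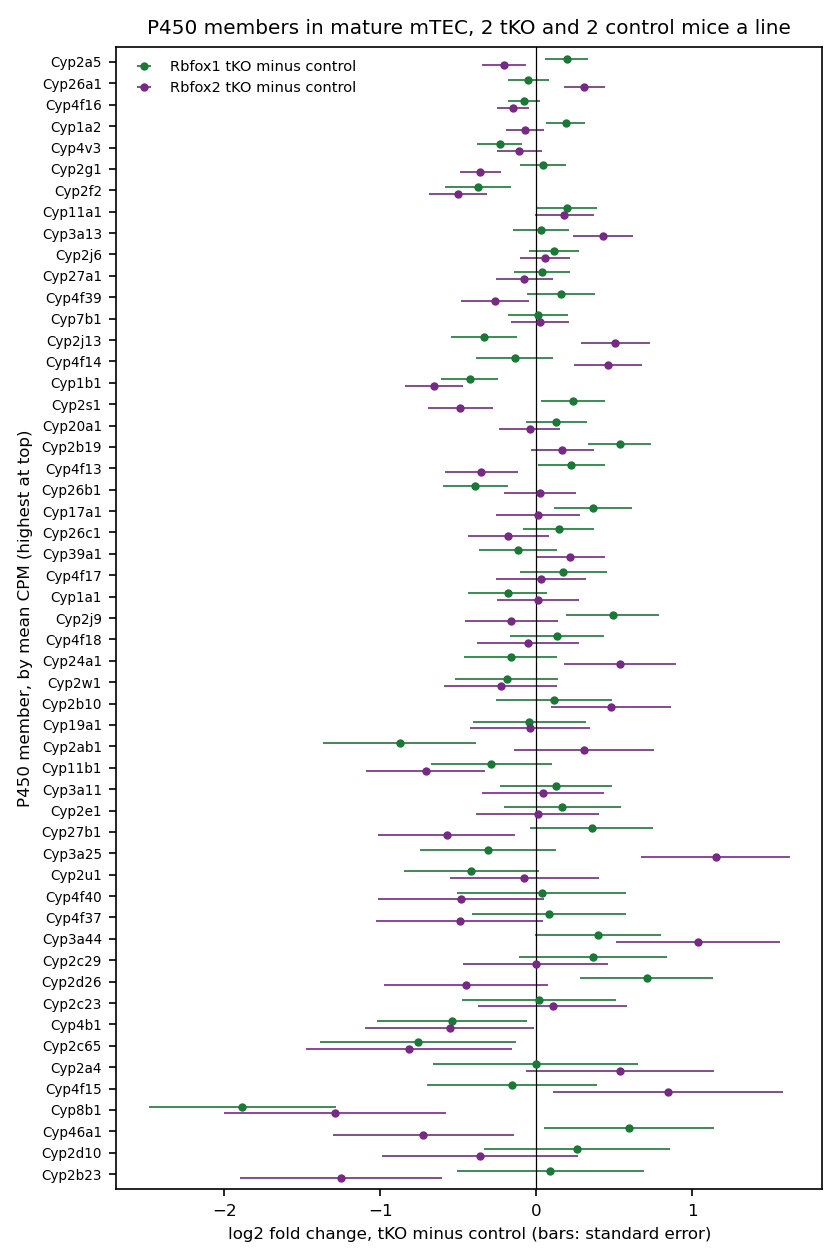
Log2 fold change of tKO minus control in mature cells for the 53 tested members, for the Rbfox1 line (green) and the Rbfox2 line (purple), with bars of 1 standard error and members ordered by mean CPM. Values run from -1.88 to 1.15, 0 members were called in either line, and the bars widen toward the low members at the bottom.

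More members passed the adjusted p threshold between the lines than between genotypes. In mature cells 6 of 53 members differed at an adjusted p under 0.05, all lower in the Rbfox1 line, beside 13.2% of all rows. With the fold threshold 1 was called, Cyp2f2, beside 1.04% of rows. Cyp2f2 was at 43.8, 23.3, 25.2 and 26.8 CPM in the Rbfox1 line and 74.0, 66.2, 44.5 and 54.5 CPM in the Rbfox2 line, without overlap (log2 fold change -1.0, SE 0.14, adjusted p = 0.000119). The call of Cyp2f2 sat at the threshold and was lost without any of 4 libraries (-0.81 without Rbfox1 control replicate 3, -0.98 without Rbfox1 tKO replicate 2, -0.96 without Rbfox2 control replicate 1 and -0.93 without Rbfox2 tKO replicate 2). Cyp2g1 was at 30.2 to 37.7 against 50 to 70.2 CPM (-0.76, SE 0.10). The others were Cyp4f14 (-0.75), Cyp1a2 (-0.36), Cyp39a1 (-0.68) and Cyp2a5 (-0.34).

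In immature cells 8 of 20 members differed between the lines at an adjusted p under 0.05, beside 23.4% of all rows. With the fold threshold 1 was called, Cyp4b1, beside 5.05% of rows. Cyp4b1, a fatty acid and foreign compound hydroxylase of lung, was at 0.43, 0.82, 0.47 and 0.51 CPM in the Rbfox1 line and 4.90, 3.61, 7.70 and 5.55 CPM in the Rbfox2 line (log2 fold change -3.12, SE 0.56, adjusted p = 0.000782). These values rest on 1 to 2 counts a library in the Rbfox1 line and 6 to 11 in the Rbfox2 line. Cyp4b1 thus passed the count filter only through the Rbfox2 line. In mature libraries it was at 1.75 to 3.40 and 1.16 to 2.47 CPM, where the lines overlapped. Cyp1b1 was also lower in immature cells of the Rbfox1 line (107 to 132 against 174 to 226 CPM, -0.77, SE 0.10), as were Cyp2f2 (-0.86), Cyp2g1 (-0.77), Cyp2j6 (-0.45) and Cyp4v3 (-0.42). Cyp4f16 (0.49) and Cyp26a1 (1.0, adjusted p = 0.0383) were higher.

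Markers of other cells moved with these line differences. All 6 fibroblast markers were tested and called lower in immature cells of the Rbfox1 line, with summed levels of 311 to 522 CPM in Rbfox1 controls, 487 to 603 in Rbfox1 tKO, 1552 to 1812 in Rbfox2 controls and 1805 to 2324 in Rbfox2 tKO, and each of the 6 had counts. The 3 endothelial markers were lower as well, at 19.4 to 51.7 CPM against 58.4 to 184 CPM. Aire was called higher in immature cells of the Rbfox1 line, by 2.71 on the log2 scale. In mature cells its difference of 1.0 fell just short of the fold threshold. Their part in the P450 differences was not tested, and the gene that was deleted, litters and colonies cannot be told apart in this comparison.

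Sex gave 0 called members in either population, beside 0.0277% of rows in mature and 0.0536% in immature cells. Unadjusted p-values under 0.05 were found for 6 of 53 and 1 of 20 members, beside 6.40% and 3.88% of all rows, and DESeq2 called 0 in both. The smallest p-values were those of Cyp26a1 (log2 fold change of females against males 0.22, adjusted p = 0.645) and Cyp4v3 (0.24, adjusted p = 0.660) in mature cells and of Cyp7b1 (-0.44) and Cyp39a1 (0.43) in immature cells.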

How the data were processed

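mTEC from 8 mice gave 16 libraries, with 2 mice (separate animals) per line and genotype. Per the submitters' processing notes and the study's methods, stranded libraries were aligned to mm10 with HISAT2 2.1.0, and the authors deposited raw counts per gene from featureCounts 1.6.0 (Picard 2.10.9 is also named). The study's methods name de-duplication and down-sampling of reads. The file headers mark the libraries as de-duplicated and carry the numbers 14500000 (mature) and 10000000 (immature), taken here as the reads kept, so that depth would differ between the populations by construction. Strand and multi-mapping settings are not given in the sources used here. Counts were tested with edgeR 4.0.16 (R 4.3.3) across all rows: TMM, filterByExpr (minimum count 10), glmQLFit and glmQLFTest, Benjamini-Hochberg adjustment, with a mean per condition. The fits were checked on simulated counts. Totals of 1506134 to 4636367 limit precision, and counting intervals (exact Poisson, 95%) cover counting error only. Replicate libraries of a group differed beyond sampling noise (chi-square per degree of freedom 1.78 to 2.74). The mature and immature library of a mouse are paired by animal (correlation of deviations 0.173 to 0.301), and a fit with that block changed no member call. Exon lengths are those of GENCODE M21. Named were the called members of largest change, those of smallest p elsewhere, the 10 highest per kilobase and members with textbook roles. The members and lists were chosen with earlier results of these data known. Alternatives covered DESeq2 1.42.0, scaling, filters, thinning, pairing and left-out libraries. Assembled loci entered the fits and are not described.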

Additional observations from a re-analysis of the deposited data

Results flagged for a closer look

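Among the named members, 94 groups of 4 libraries were examined for a library far from the others, and 3 stood out, where chance flags about 1 in 20 groups. Cyp3a13 was at 35.5 CPM in the mature library of Rbfox1 control replicate 2, with the other 3 controls at 23.2 to 25.2 CPM. In the same library Cyp4f14 was at 10.2 CPM, with the others at 19.3 to 20.9 CPM. Cyp4f16 was at 76.7 CPM in the mature library of Rbfox2 tKO replicate 2, with the other tKO libraries at 73.3 to 73.5 CPM.

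The effect of tKO on Cyp2j6 in immature cells had opposite signs in the lines. The log2 fold change was 0.35 in the Rbfox1 line, where both tKO libraries were above both controls, and -0.061 in the Rbfox2 line, where both were below. The difference between the lines was not tested.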

How the results depend on the processing

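The number of members called between mature and immature cells was 37 in control mice and 36 in tKO mice, and DESeq2, other scalings and the replicate block with the mouse gave the same numbers. Without a filter on low counts 57 and 57 were called, and with counts thinned to the smallest library 20 of 28 and 21 of 30 tested, since fewer members then passed the filter. Leaving out a library gave 33 to 45 and 28 to 41. The difference of detected members between the populations, 38, was 45.6 without thinning and 21.3 at a minimum of 5 counts, and 36.8 to 39.0 with a library left out, which was added after seeing the data. The count of members called between the lines rests on the threshold. In mature cells it was 1, and 6 with adjusted p alone, 0 with all 16 libraries, 0 with library totals, 2 without a filter and 0 to 2 with a library left out. In immature cells it was 1, and 8, 2, 2 and 2 under the same settings in that order, and 1 to 2 with a library left out. In mature cells Cyp4f14 was called in place of Cyp2f2 without Rbfox1 control replicate 3 (-1.01). In immature cells Cyp26a1 passed under 3 settings (1.0 to 1.08), Cyp2f2 without Rbfox1 tKO replicate 3 (-1.03) and Cyp2g1 without Rbfox2 control replicate 1 (-1.0). The 9 other comparisons gave 0 called members under each alternative.

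Signs turned in values near 0 that were not called. In control maturation, Cyp20a1 was 0.020 with DESeq2, 0.019 with DESeq2 size factors, 0.034 with library totals, 0.027 without a filter, 0.083 with thinned counts and -0.10 to 0.033 with a library left out. Cyp4f13 was 0.046, 0.046, 0.061, 0.054 and 0.25 under these settings and -0.036 to 0.033 with a library left out. In tKO maturation, Cyp20a1 was -0.092 with thinned counts, Cyp4b1 -0.0043 with all 16 libraries and -0.22 to 0.22 with a library left out, and Cyp7b1 -0.051 to 0.36 with a library left out. Cyp2g1 fell under the fold threshold in tKO mice under 6 settings (0.83 to 1.0). The cause was not tested. Same-numbered tKO and control mice, which the labels tie to no litter, had correlated deviations of 0.191 to 0.312 in mature and 0.0889 to 0.12 in immature cells, and that replicate block gave 0 called members in each tKO comparison. With 2 mice a group and 3 to 12 counts of Cyp26a1 in immature Rbfox2 libraries, small differences of low members were not detectable at this depth.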
